A study of Capra hircus with 2 samples.

Results

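The miR-34 and miR-449 seed family was followed in the endometrium of Xinong Saanen dairy goats at 2 stages of early pregnancy. All known miRNA names of the deposited table that stand for miR-34a, miR-34b, miR-34c, miR-449a, miR-449b or miR-449c were taken, with any species prefix, arm or end annotation. This gave 10 of 587 names, which cover 5 of the 6 loci, and no name stood for miR-449c. The table names each sequence after its nearest entry of another species, with L and R for bases gained or lost at the left and right end and ss for substitutions. Of the 10 names, 5 come from the 5p arm of the hairpin and 5 from the 3p arm.

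The goats were multiparous and 24 months old, and were mated naturally after synchronization of oestrus. The pre-receptive endometrium (P library) was collected on day 5 of gestation and the receptive endometrium (R library) on day 15, from 10 goats per phase. RNA of 9 goats of a phase was mixed into 3 pools and sequenced 3 times. The deposited tables give 1 value per phase, called a library here, so that no difference in them has a replicate. Values are normalized expression (NE), in which each read of an entry has the same worth within a library, 0.860 NE in R and 1.16 NE in P. Each member has 1 entry, while 54 other names have several with equal NE, whose reads were summed and whose NE is given as listed. Summed over all entries of known miRNAs in the table there were 1904242 reads for R and 4046632 for P. This sum takes in every entry of a repeated name and each name of an equal sequence, so that it may count a read more than once. The same sum is the total of listed reads below.

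The members of this family share the stretch of bases near the 5′ end, the seed, by which a miRNA finds its target mRNAs. As background, miR-34a and the miR-34b/c cluster are induced by the tumour suppressor p53 and restrain the cell cycle. The miR-449 cluster lies in an intron of CDC20B, is abundant in epithelia with multiciliated cells, and acts with miR-34b/c in the formation of motile cilia. The oviduct and the endometrial glands are among the epithelia that carry such cells.

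The 5 names with the family's seed are shown first, since the comparison of loci rests on them. They are written 5′ to 3′ with bases 2 to 8 in capitals and with T for U, as in the deposited table.
hsa-miR-34a-5p: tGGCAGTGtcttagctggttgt
hsa-miR-34c-5p: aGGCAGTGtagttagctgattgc
hsa-miR-34c-5p_2ss11GA23CT: aGGCAGTGtaattagctgattgt
hsa-miR-449a: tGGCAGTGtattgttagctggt
bta-miR-449b_R+4: aGGCAGTGtattgttagctggctgtt

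No other name among the 587 known names, and 0 of the 621 predicted candidates, had GGCAGTG at bases 2 to 8. From base 2 onwards the match between miR-34a and the others ran to base 9, while miR-34c and both miR-449 sequences matched to base 10. A later stretch, ttagctg, was also common to all 5 sequences. It began at base 11 in miR-34a, at base 12 in both miR-34c sequences and at base 14 in both miR-449 sequences, so that the loci differ in the spacing between the seed and this stretch. Counted from 1 at the 5′ end, hsa-miR-449a and bta-miR-449b_R+4 differed by T1A and T22C within their first 22 bases. The miR-449b sequence is 26 nt long, which is the longest length in the table and is shared by 4 names. The variant of miR-34c-5p differs from hsa-miR-34c-5p by G11A and C23T, and by background knowledge its letters are those of mouse miR-34b-5p. It was counted under miR-34c, as the table names it, and under miR-34b in an alternative.

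Among the 3p arms, those of miR-34b and miR-34c form a pair with a seed of their own, shown here because these arms were the only 3p names with more than 14 reads in a library.
mmu-miR-34b-3p_2ss9AG10CT: aATCACTAgttccactgccatc
hsa-miR-34c-3p: aATCACTAaccacacggccagg

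The first 8 bases of these 3p sequences were equal, and no other known name had ATCACTA at bases 2 to 8. The 3p sequences of miR-34a, miR-449a and miR-449b had seeds that no other known name shared.

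In the RefSeq gene table of the goat assembly ARS1.2 the 6 loci fall into 3 places. MIR449A, MIR449B and MIR449C lie inside CDC20B, with MCIDAS and CCNO, regulators of multiciliated cell formation, among the nearest protein-coding genes. MIR34B and MIR34C lie inside C15H11orf88 next to BTG4, and MIR34A lies outside any annotated gene near GPR157. The assembly of the deposited tables was not matched to this one, so no positions are given.

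In the authors' table of conservation, which lists for 23 species the hairpins matched by the goat miRNAs, mir-34a was listed for 15 species. mir-34c was listed for 10 species, mir-449a for 9, mir-34b for 7 and mir-449b for 5. mir-449c was listed for 0 species. Cow was the species with all of the 5 hairpins that were listed at all, and the mir-449b list held Cow and 4 primates.

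Among the members with reads in both libraries, miR-449a showed by far the widest change. It rose from 16.3 NE in the P library (14 reads) to 1843 NE in the R library (2143 reads), a 113-fold difference with a 95% exact (Clopper-Pearson) interval of 67.3 to 207. By NE it stood at place 258 of the 587 known names in P and at place 60 in R. In the order of log2 ratios it was the highest of the 420 tested names for which a ratio could be given. The width of the interval comes from the 14 reads in P. Intervals and limits here cover counting error at most, and they take reads as independent. Reads copied by PCR and not marked by molecule are not independent, so that the intervals may be too narrow.

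The main miR-34 names with the seed were abundant in both libraries and rose less. hsa-miR-34c-5p had 1090.3 NE in P and 2778 NE in R, a 2.55-fold rise (2.37 to 2.74). hsa-miR-34a-5p had 830.3 NE in P and 2522 NE in R, a 3.04-fold rise (2.80 to 3.301). These were the most abundant members in both libraries, at places 68 and 77 in P and at places 47 and 48 in R. The variant of miR-34c-5p had 78.5 NE in P and 125.97 NE in R, a ratio of 1.60 (1.19 to 2.16), which stayed under the limit of 2-fold.

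bta-miR-449b_R+4, from the same cluster as miR-449a, had 14 reads in R (12.0 NE) and 0 in P. A count of 0 allows up to 3 reads, equal to 3.49 NE in P, and against this limit miR-449b was at least 3.45-fold higher in R. The lower limit of its exact interval is a 2.45-fold difference.

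The 3p arms were scarce. hsa-miR-34c-3p rose from 9.30 to 32.7 NE (8 and 38 reads), a 3.51-fold difference with an interval of 1.61 to 8.72. mmu-miR-34b-3p_2ss9AG10CT had 39.5 NE in P and 76.5 NE in R, a ratio of 1.94 (1.29 to 2.96). hsa-miR-34a-3p had 6 reads in P and 14 in R, and the interval of its ratio of 1.73 (0.623 to 5.48) included 1. These 3 names show how far the reads limit the comparison, since the ratio of miR-34c-3p passed 2-fold with an interval that began below it. mml-miR-449a-3p_L+1_2ss21GA23CT had 4 reads in R and 0 in P, which is too few to give a fold above the limit of 3 reads. hsa-miR-449b-3p_1ss12AG had 1 read in R and 0 in P, and it was the member left out by the requirement of at least 1 NE in a library.

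**Figure D1:**
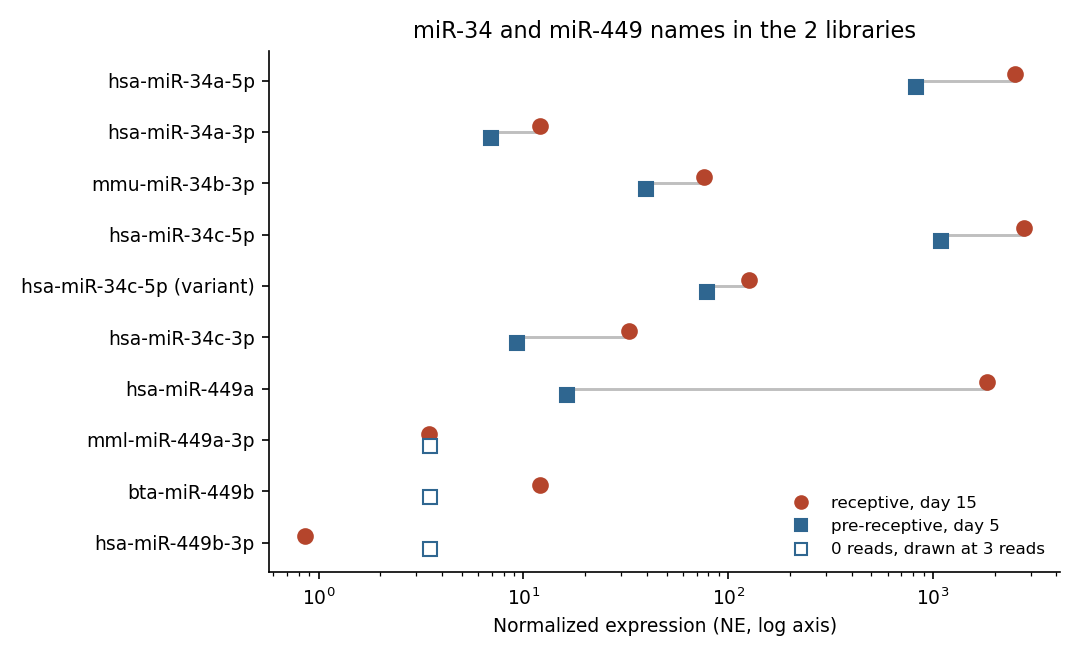
NE of the 10 names of the family (log axis) in the receptive library (circles) and the pre-receptive library (squares), with 1 library per phase and open squares for names with 0 reads in the latter, drawn at the 3.49 NE that 3 reads are worth there. The gap of hsa-miR-449a, from 16.3 to 1843 NE, is wider than that of any other member with reads in both libraries.

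A name was called when a two-sided Fisher's exact test of its reads against all remaining clean reads gave an adjusted p under 0.05 and the ratio of reads on the NE scale, with a library under 3 reads set to 3, was above 2 or under 0.5. Of the 9 members tested, 5 were called higher in R and 0 lower. Over all 518 known names tested, 14.9% were called higher and 6.76% lower. The members called were hsa-miR-449a, hsa-miR-34a-5p, hsa-miR-34c-5p (each with an adjusted exact p below 1e-300), hsa-miR-34c-3p (adjusted exact p = 3.8e-07) and bta-miR-449b_R+4 (adjusted exact p = 3.3e-05). All 10 names had a higher NE in R, but for the 3 with 0 reads in P no other direction was possible. For 7 of the 10, among them bta-miR-449b_R+4 with 0 reads in P, the exact interval excluded equality. For 4 of them, hsa-miR-449a, hsa-miR-34a-5p, hsa-miR-34c-5p and bta-miR-449b_R+4, it lay wholly above 2-fold. Over all 587 known names, 53.2% had a higher NE in R, 19.9% had an interval wholly above equality and 7.33% one wholly above 2-fold. With 1 library per phase the test sets library against library, and the deposited tables hold no spread between goats of a phase.

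The scaling between the libraries sets the size of these ratios. On the NE scale, tested names with reads in both libraries had a median log2 ratio of 0.029. With the clean reads of each library as the total every log2 ratio is 0.78 higher, and with the reads of the listed known miRNAs as the total it is 1.52 higher, so that the NE scale gives the smallest rise among these. On both of these scales 8 of the 9 members were called, with hsa-miR-34a-3p, mmu-miR-34b-3p_2ss9AG10CT and the variant of miR-34c-5p added to the 5. The background moved too. By clean reads 29.9% of the names tested were called higher and 3.47% lower, and by listed reads 39.8% and 2.12%. Of the names called, 68.8% were higher on the NE scale (77 higher and 35 lower), 89.6% by clean reads and 94.9% by listed reads. An exact binomial test with its expectation taken from NE called 71 names higher and 54 lower (56.8% higher), and called the same 5 members. Its adjusted exact p was 0.0014 for hsa-miR-34c-3p and 0.0017 for bta-miR-449b_R+4, larger than by Fisher's exact test, whose expectation rests on clean reads. No scaling turned the direction of a called member.

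**Figure D2:**
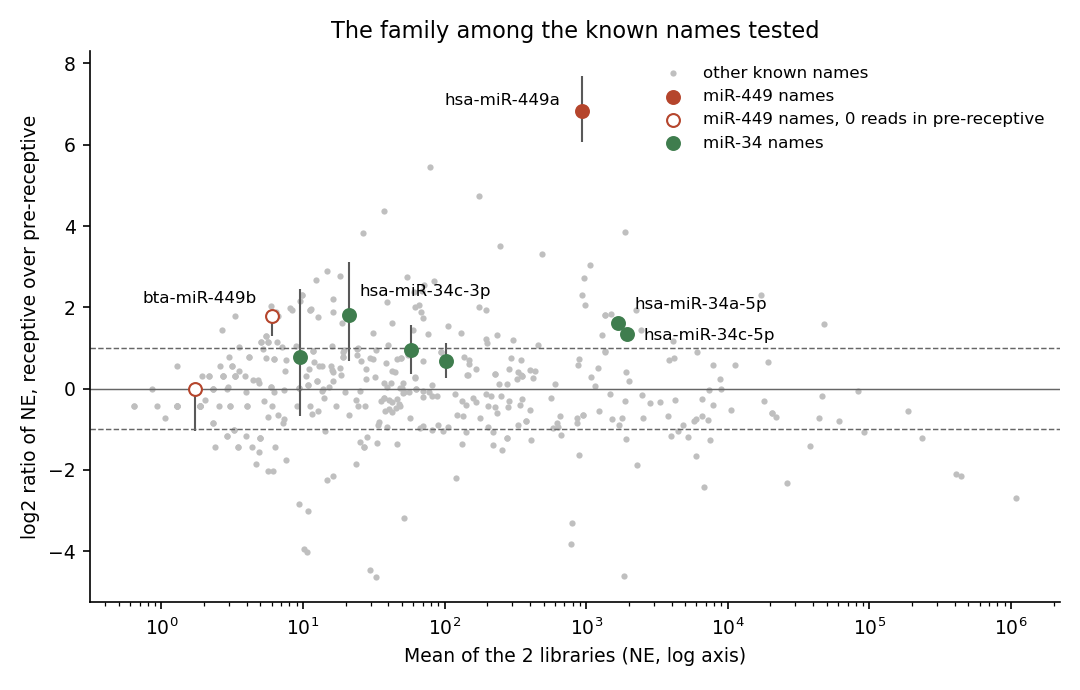
log2 ratio of NE in the receptive over the pre-receptive library against the mean NE of both (log axis) for the 420 tested names with a ratio, other names in grey and members in colour with 95% exact intervals (open points had 0 reads in the pre-receptive library, so that the ratio is taken against 3 reads and its interval has no upper end), and with dashed lines at 2-fold. hsa-miR-449a lies at 6.82, above all other points, and the open point near 0 is the 3p arm of miR-449a with 4 reads in the receptive library.

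The question of which locus supplied the seed can be answered within each library, where no scaling enters. In the P library the seed came almost wholly from miR-34, and in the R library about 1 read in 4 came from miR-449. Names of the miR-449 cluster held 0.807% of the 1734 seed-bearing reads in P (95% exact interval 0.442% to 1.35%) and 25.5% of the 8468 in R (24.5% to 26.4%), with p = 1.0e-172 in Fisher's exact test between the libraries. miR-34c held 58.0% in P (55.7% to 60.4%) and 39.9% in R (38.8% to 40.9%). miR-34a held 41.2% in P (38.8% to 43.5%) and 34.6% in R (33.6% to 35.7%). miR-449b held 0.165% in R (0.0904% to 0.277%), and its 0 reads in P have an exact interval that reaches up to 0.213%. No difference in the share of miR-449b was detectable at this depth.

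Summed over the seed-bearing names, NE was 2015 in P and 7281 in R, a 3.61-fold difference (3.43 to 3.80). The miR-34 names held 1999 NE in P and 5426 NE in R, 2.71-fold more (2.57 to 2.86), and the miR-449 names 16.3 and 1855 NE. Of the added 5265 NE, miR-449 accounted for 34.9%, miR-34c for 33.0% and miR-34a for 32.1%. The 3 places in the genome thus gave nearly equal parts of the difference on the NE scale, although miR-449 started from a level far below that of the others. As a share of the reads summed over all entries of known miRNAs, both arms of the family together held 0.0440% in P and 0.452% in R.

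**Figure D3:**
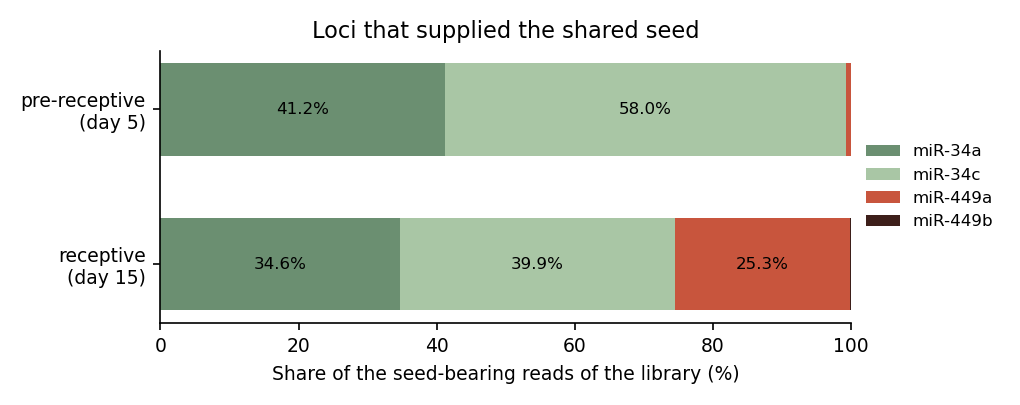
Share of the reads with the seed of the family (in percent) that came from each locus, 1734 reads in the pre-receptive library and 8468 in the receptive library. miR-449a takes 0.807% in the upper bar and 25.3% in the lower bar, and miR-449b is too small to be seen.

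The loci were then compared pair by pair, again on reads within the libraries. The ratio of miR-449a to miR-34c was 45.6 times as high in R as in P (95% exact interval 26.9 to 83.9), and that of miR-449a to miR-34a 37.3 times as high (22.0 to 68.7). Between these 2 libraries miR-34c, with its variant counted in, rose slightly less than miR-34a, with a ratio of ratios of 0.817 (0.733 to 0.912). These intervals and the tests below compare reads and do not cover a spread between goats. In Fisher's exact test with adjustment over the 6 pairs of 4 loci, the adjusted p was 3.6e-168 for miR-449a against miR-34c and 5.6e-133 for miR-449a against miR-34a. It was 0.00050 for miR-34c against miR-34a in the same exact test. The 3 pairs with miR-449b did not pass (adjusted exact p between 0.075 and 1), and its 14 reads leave a ratio of ratios to miR-34c from 0.986 upwards. With the variant of miR-34c-5p taken as miR-34b, 10 pairs could be compared, and miR-34b differed from miR-34a (adjusted exact p = 0.00013), from miR-34c (adjusted exact p = 0.0045), from miR-449a (adjusted exact p = 6.5e-61) and from miR-449b (adjusted exact p = 0.017). The log2 ratio of ratios was -0.93 for miR-34b against miR-34a, with an interval of -1.37 to -0.47, so that miR-34b differed least between the libraries among the 4 loci with reads in both.

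The 5p arm predominated at the hairpins of miR-34a, miR-34c and miR-449a in both libraries. It held 99.2% of the reads of miR-34a in P (98.2% to 99.7%) and 99.5% in R (99.2% to 99.7%). For miR-34c it held 99.2% in P (98.5% to 99.7%) and 98.9% in R (98.5% to 99.2%). For miR-449a it held 99.8% of 2147 reads in R (99.5% to 99.9%) and all of 14 reads in P, where the interval reaches down to 76.8%. A shift of arms between the libraries was not detectable at any of the 3 loci tested (adjusted exact p 0.72 for miR-34a, 0.72 for miR-34c and 1 for miR-449a). miR-449b had 14 reads of the 5p arm and 1 of the 3p arm in R, and 0 reads in P. By the names of the table miR-34b had its 3p arm alone. With the variant of miR-34c-5p taken as miR-34b-5p, the 5p arm made up 66.7% of 102 reads in P (56.6% to 75.7%) and 62.3% of 236 reads in R (55.8% to 68.5%). The arms of miR-34b were then far more even than those of the other hairpins, whose intervals in R all lay above those of miR-34b except for miR-449b with 15 reads (68.1% to 99.8%).

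Names known from particular cell types were set beside the family. In whole endometrium a smaller number of cells of a type and less RNA per cell cannot be told apart. Of 16 epithelial names tested, among them the miR-200 family and the miR-183 cluster, 12 were called higher in R and 0 lower, and 13 were called higher by clean or by listed reads. Their median log2 ratio was 2.75, against -0.02 over all names tested. Over all 17 epithelial names listed the summed NE was 6997 in P and 38636 in R, and no name was written as miR-200b or miR-203a. miR-203, another name of miR-203a, was listed as ptr-miR-203_L-1R+1 with 230.3 NE in P and 1897 NE in R. The most abundant was hsa-miR-141-3p_R-1, with 5791 NE in P and 28337 NE in R. Its log2 ratio was 2.29 (2.25 to 2.33). bta-miR-183_L-1 had the highest log2 ratio of the list, 5.46 (3.89 to 7.75), on 3 reads in P and 179 in R. Among those with at least 10 reads in all, ggo-miR-203b had the lowest, 1.60 (0.85 to 2.44).

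Muscle names went the other way. Of 10 tested, 8 were called lower in R and 0 higher, with a median log2 ratio of -2.69. By clean reads 6 and by listed reads 5 were called lower. Their summed NE was 1883319 in P and 292640 in R, mostly from aja-miR-143_1ss22GT, the smooth muscle and fibroblast miRNA, with 1866274 NE in P and 289634 NE in R. oar-miR-133_L+1R-2 had the lowest ratio of the list, with 64.5 NE in P and 0.430 NE in R, and hsa-miR-499a-5p the highest, -1.03 (-1.48 to -0.60). The ratio of hsa-miR-499a-5p was not called, and with the scaling by listed reads it is above 0. No name was written as miR-1a, miR-133b, miR-206, miR-208b or miR-499, of which miR-1a and miR-499 are other names of listed ones (hsa-miR-1_1ss1TC and hsa-miR-499a-5p).

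The other lists had medians nearer to that of all names. Of 6 red cell names 0 were called, with a median of -0.68 (0.11 when scaled to clean reads), while 2 were called higher by clean reads and 2 by listed reads. These names stand for 4 sequences, since the 4 names of miR-144 hold 2 sequences with equal values. Counting each sequence once, their summed NE was 8749 in P and 5580.2 in R. cgr-miR-486-5p was their most abundant name, with 8073 NE in P and 5052 NE in R, and miR-451a was listed under its older name as ssc-miR-451_L+3R-1, with 1.16 NE in P and 1.72 NE in R. Their log2 ratios ran from -0.80 for cgr-miR-144_L+2R-3, which the scaling by listed reads brings above 0, to 0.35 for hsa-miR-144-3p. Of 4 leukocyte names tested 2 were called higher (3 by clean reads and 3 by listed reads), with a median of 0.70. Over all 6 leukocyte names listed the summed NE was 5218 in P and 7811 in R, and miR-146b and miR-150 had no name. cgr-miR-142-5p_L-2R+1 was the most abundant of them (2524 NE in P and 5689 NE in R). cgr-miR-142-3p_L+1R+1 had the highest log2 ratio, 1.19, and hsa-miR-155-5p the lowest, -0.71, which is above 0 when scaled to clean reads. Of 7 stromal fibroblast names 0 were called (2 higher by clean reads and 5 by listed reads), with a median of -0.05 (0.73 when scaled to clean reads) and a summed NE of 97156 in P and 97321 in R. oar-miR-199a-3p was their most abundant name (84822 NE in P and 82015 NE in R), bta-miR-199b had the highest log2 ratio, 0.90, and bta-miR-199a-3p_R-1_2ss20TC21TA the lowest, -0.44, which is also above 0 by clean reads. Of 4 endothelial names 0 were called (3 higher by clean reads and 3 by listed reads), with a median of 0.52 and a summed NE of 21287 in P and 32841 in R. hsa-miR-126-5p was both the most abundant of these (14955.5 NE in P and 23369 NE in R) and the highest in log2 ratio, 0.64, and oan-miR-126-5p_R-3_1ss18CA was the lowest, 0.05.

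The epithelial names were thus 5.52 times as high in R by summed NE, and the muscle names 0.155 times as high, in the same pair of libraries in which miR-449a rose 113-fold. Each sum comes mostly from a single name, hsa-miR-141-3p_R-1 with a ratio of 4.89 and aja-miR-143_1ss22GT with 0.155. The part of the differences between the lists in the rise of the family was not tested.

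**Figure D4:**
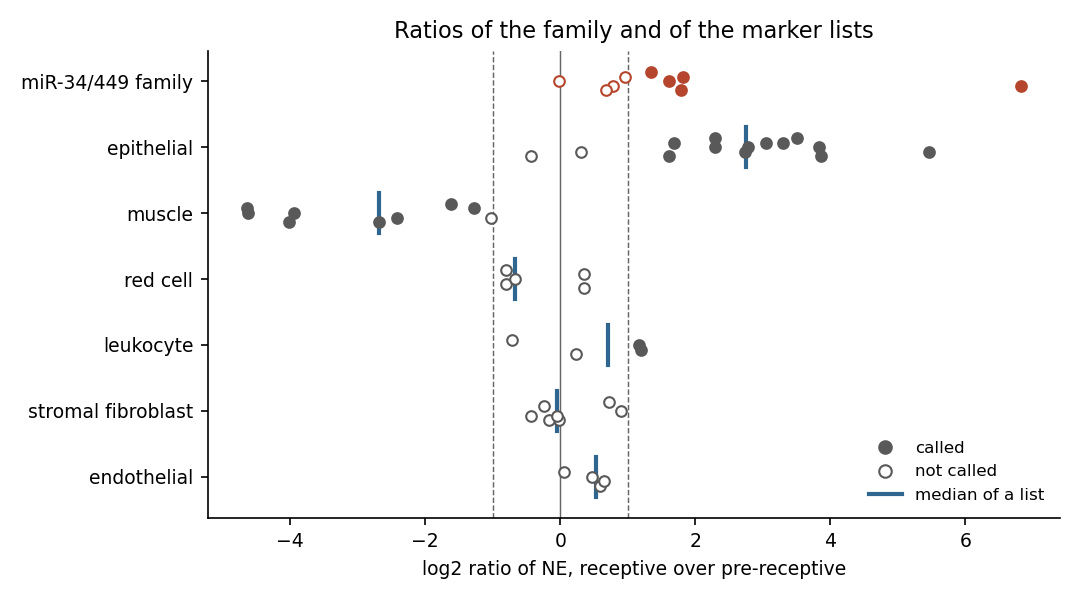
log2 ratio of NE in the receptive over the pre-receptive library for each tested name of the family and of 6 marker lists, with filled points called and open points not called, blue bars at list medians and dashed lines at 2-fold. The epithelial median is 2.75 and the muscle median -2.69, and hsa-miR-449a at 6.82 lies beyond every point of the lists.

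The names most like miR-449a in their ratio were looked for among the known names with at least 100 reads in all. The 5 nearest followed it directly in the order from the highest ratio. They were bta-miR-183_L-1 with a log2 ratio of 5.46 (3.89 to 7.75), hsa-miR-187-3p_R+1 with 4.73 (3.87 to 5.74), bta-miR-182 with 3.86 (3.66 to 4.07), hsa-miR-200a-5p with 3.51 (3.01 to 4.06) and cfa-miR-375, which was 9.85-fold higher (log2 interval 2.97 to 3.65). Of these 5, 4 belong to the epithelial list, which holds 17 of the 587 known names. That list was chosen with earlier results known and was itself high in R, with a median log2 ratio of 2.75. hsa-miR-184, on none of the lists, had a log2 ratio of 4.37 with P set to 3 reads, and the limit of 100 reads left it out. miR-449a had 6.82 (6.07 to 7.70), and of the 5 intervals that of bta-miR-183_L-1 overlapped its own. Likeness here rests on 1 ratio between 2 libraries.

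Targets were predicted by the authors for the miRNAs they held to be changed, and 4 members have targets in that table. hsa-miR-449a had 1030 target identifiers, hsa-miR-34a-5p 1025 and hsa-miR-34c-5p 1023, which are places 15 to 17 among the miRNAs of that table and lie above their median of 578.5. hsa-miR-34c-3p had 390. The lists of the seed-bearing members were close to the same list. miR-34a and miR-34c shared 964 identifiers, 94.0% of the list of miR-34a and 94.2% of that of miR-34c. miR-449a shared 946 with miR-34a (91.8% of its own list and 92.3% of the other) and 953 with miR-34c (92.5% of its own list and 93.2% of the other). In all, 1137 identifiers were listed for any of these 3 members, 14.9% of the 7608 in the table, and 922 of them (81.1%) for all 3. Those listed for a single one of them were 53 for miR-449a, 37 for miR-34a and 28 for miR-34c.

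The prediction used the seed, so this overlap follows the method as well as the sequences. Among 10005 pairs of miRNAs with different sequences the median overlap was 6.75% of the union, and among the 13 pairs with equal bases 2 to 8 it was 86.3%. The pairs of seed-bearing members stood at places 5, 6 and 9 from the highest, with 88.9% for miR-34a and miR-34c, 86.6% for miR-34c and miR-449a, and 85.3% for miR-34a and miR-449a. hsa-miR-34c-3p, from the same hairpin as miR-34c-5p but with another seed, overlapped the 3 by 6.23% to 6.77%, close to the median of all pairs. Identifiers shared by all 3 seed-bearing members were listed for a median of 19 miRNAs of the table, against 8 for all identifiers. The shared identifiers have at least these 3 listings by selection, so that a higher median is partly built in and no conclusion is drawn from it. The table holds identifiers without gene symbols, and 0 of the 7608 matched the RefSeq gene table, so cell cycle targets known for this family were not looked up here. The deposited tables hold no mRNA levels.

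**Figure D5:**
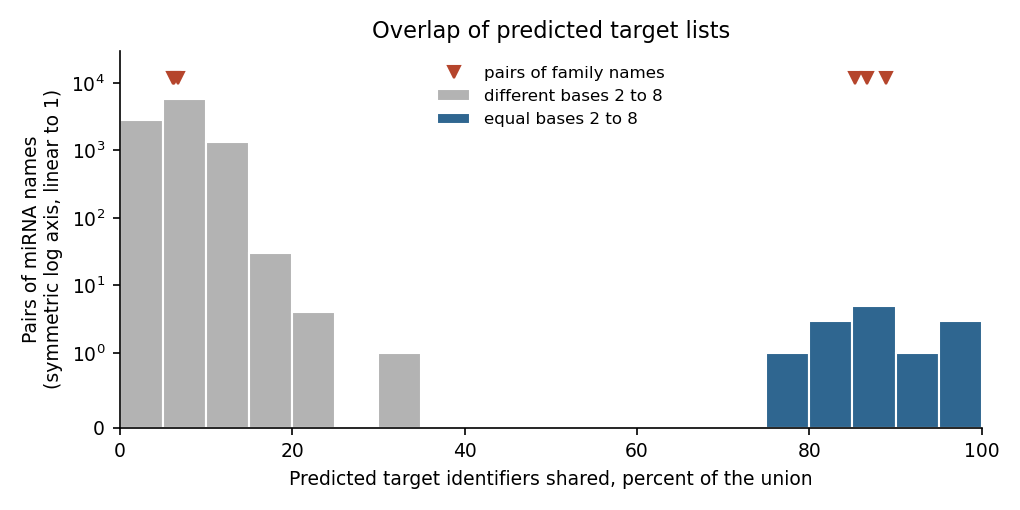
Number of pairs of miRNA names (symmetric log axis) by the share of predicted target identifiers that the pair has in common, in percent of the union, for 10005 pairs with different sequences, with the 13 pairs of equal bases 2 to 8 in blue, all others in grey and the pairs of family names as red triangles. The pairs of seed-bearing members lie between 85.3% and 88.9%, and the pairs with miR-34c-3p lie between 6.23% and 6.77%.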

How the data were processed

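Small RNA of goat endometrium was measured in 1 receptive and 1 pre-receptive library, each from pooled RNA of 9 goats. The authors filtered the reads, kept lengths of 18 to 26 nt, matched them to miRBase and the goat genome, and deposited a normalized signal (NE) per name and library, which is reads divided by a size factor. This factor is not the total of clean reads by which the methods of the study define NE, so scaling by clean reads was run as an alternative. The deposited columns of fold, log2 and p-value were not used. All 340 known names and 0 of the 70 candidates shared with the table of differences had equal values there under the same labels (within 0.006 NE). The 70 candidates matched with the labels exchanged, so the labels of the known table were used and the candidate values were not.

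Dividing NE by its worth per read in a library gave the reads. Of 641 entries, 77.4% in R and 83.2% in P gave whole reads (within 0.01 of a read). The others held fractions of a read, as did 2 members at 0.5 between whole reads. Reads were rounded, with 0.5 rounded up, and reads of the 54 names with several entries were summed, to which the limit of 3 reads was then applied. Names with at least 1 NE in a library were tested by Fisher's exact test against the clean reads of the libraries, with Benjamini-Hochberg adjustment over all 518 names. Intervals are 95% Clopper-Pearson, and 1e-300 is the smallest p written. The count of 0 was read as up to 3 reads, 2.58 NE in R and 3.49 NE in P. Pairs of loci and arms were tested by Fisher's exact test on reads, pairs with at least 10 reads.

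Besides the members, the names given are, for each marker list, the most abundant one and those with the highest and lowest ratio at 10 reads or more, and the 5 names nearest miR-449a. The members, lists and tests were chosen with earlier results of these data known. The lists share no miRNA with each other or with the family. Target identifiers were taken from the gene column, since the transcript column holds each identifier once and is not aligned with the names. The alternatives were other scalings, tests, filters and treatments of 0, counting by sequence, and locus by sequence. Counting the reads of a repeated name once was added after seeing the data. Python 3.11.15, pandas 2.3.3, numpy 2.4.6, scipy 1.17.1 and matplotlib 3.10.9 were used.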

Additional observations from a re-analysis of the deposited data

How the results depend on the processing

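The direction of every called member, the miR-449 share, the 3 pairwise ratios among miR-34a, miR-34c and miR-449a and the absence of a detectable arm shift held under each alternative run for them. Scaled to clean reads, 8 members were called, with 29.9% of all names tested higher and 3.47% lower. Scaled to listed reads, these values were 8, 39.8% and 2.12%. An exact binomial test by NE called 10.4% of names lower, and the fold limit alone 12.7%. With names at 0 in a library left out, 4 members were called, without bta-miR-449b_R+4. Scaling by clean reads moved the list medians to 3.53 (epithelial), -1.90 (muscle), 0.11 (red cell), 1.48 (leukocyte), 0.73 (stromal fibroblast), 1.31 (endothelial) and 0.76 (all names), and scaling by listed reads to 4.27, -1.16, 0.85, 2.22, 1.47, 2.05 and 1.50, as adding a constant must. At 10 reads or more, with fewer names tested, 22.5% were called higher and 10.4% lower, the epithelial median was 2.91 and that of all names 0.073. Target overlap by transcript identifier could not be run, since that column is not aligned with the miRNA names. No paired analysis was possible because each phase has 1 library. Counting the reads of a repeated name once, an alternative chosen after seeing the data, called the same 5 members and 14.5% of names higher. Depth limits miR-449b-3p, which was not tested, with 1 read in R and 0 in P, and also miR-449a-3p (4 and 0), miR-449b (14 and 0) and miR-34a-3p (14 and 6).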

Other observations

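The stem-loop assay that the study designed for miR-449a can be set against the sequences of the family. The forward primer covers 14 bases of the miRNA and the end of the reverse transcription primer 8 bases. All of these match hsa-miR-449a. In bta-miR-449b_R+4, 13 of the 14 bases and 7 of the 8 bases are equal, the differences being T1A and T22C. In hsa-miR-34a-5p 11 of 14 and 4 of 8 bases were equal at the same positions, and in hsa-miR-34c-5p 10 of 14 and 0 of 8. Positions were counted from the 5′ end. In hsa-miR-34c-5p (23 nt) and bta-miR-449b_R+4 (26 nt) the 8 bases are therefore not the 3′ end, and a match at their 3′ ends was not compared. In the R library miR-449b had 14 reads against 2143 of miR-449a.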
